A study of Mus musculus with 16 samples.

Results

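The genes described here encode the major histocompatibility complex (MHC) proteins of the mouse and the proteins that load them with peptide. They were every feature whose symbol begins with H2-, together with Cd74, B2m, Ciita, Tap1, Tap2 and Tapbp, which gave 40 of the 31055 features counted. Of these, 24 encode class I heavy chains, 1 the class I light chain (B2m), 3 the class I loading machinery (Tap1, Tap2 and Tapbp) and 4 class II chains. Another 6 serve class II loading (Cd74, H2-DMa, H2-DMb1, H2-DMb2, H2-Oa and H2-Ob), Ciita is the class II regulator, and H2-Ke6 carries the prefix but encodes a steroid dehydrogenase and no MHC chain. On the RefSeq annotation of GRCm38.p6, 37 of them lie on chromosome 17, B2m on chromosome 2, Ciita on chromosome 16 and Cd74 on chromosome 18.

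MHC class I molecules are found on nearly all nucleated cells, where a heavy chain and B2m display peptides cut by the proteasome and carried into the endoplasmic reticulum by the transporter Tap1/Tap2. MHC class II molecules are mainly a property of macrophages, dendritic cells and B cells, where Cd74, the invariant chain, guards the peptide groove until H2-DM loads it. Ciita is the switch that turns on the class II genes as a group, and interferon-gamma is known to raise both classes, also in cells of the vessel wall.

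The measurements were single-cell RNA counts of the thoracic aorta of 16 male 129S6/SvEv mice, 1 library per mouse, sorted for living cells. In Smad3SmKO mice both Smad3 alleles are flanked by lox sites and are cut out by Myh11-CreER, a Cre that a smooth muscle promoter confines to vascular smooth muscle cells (VSMCs) and that was switched on with tamoxifen at 6 weeks of age. Smad3+/+ controls carried the same Cre and received tamoxifen too, and some mice of both genotypes also carried a Myh11-driven GFP tracer. Tissue was taken 10 weeks after deletion from 2 Smad3+/+ mice and 2 labelled Smad3SmKO, and 18 weeks after it from 5 and 7, and the comparison of genotypes asks whether loss of Smad3 from smooth muscle moved these genes and whether the answer changed with time. All 10-week libraries belong to batch 4 with 60 min of digestion, whereas the 18-week libraries fall into batches 1 to 3 (30 min) and 5 and 6 (60 min), and batch 5 holds no Smad3+/+ mouse.

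Cells were assigned by marker counts, not by any gene described here. Of 66349 deposited cells 50858 were kept, and 8950 passed as VSMCs (at least 5 Myh11 UMIs and more than Dcn), 36066 as fibroblasts (at least 5 Dcn UMIs and more than Myh11), 3303 as endothelium (at least 2 UMIs of Pecam1 and Cdh5) and 3357 as leukocytes (at least 2 UMIs of Ptprc and Tyrobp). A UMI marks 1 captured RNA molecule. Leaving out the genes that set the gates, the defining markers had their highest level in the type they mark for 8 of 8 VSMC, 8 of 8 fibroblast, 7 of 7 endothelial and 6 of 6 leukocyte markers. The endothelial label holds less well than the others: 2077 of its 3303 cells also passed another gate, 1813 of them the fibroblast gate, so its values are given again for the 1226 cells that passed that gate alone. Deposited libraries held 12539539 to 52843031 UMIs, and kept cells had a median of 4528 to 21884 UMIs per library. Replicate 7 labelled Smad3SmKO of 18 weeks gave 13 leukocytes, fewer than the 20 required, and was left out of every leukocyte fit and range. No pair of libraries shared more than 11 cell barcodes, 0.363% of the smaller library. Smad3 itself, counted over the whole gene, did not pass between genotypes in VSMCs in edgeR's quasi-likelihood test (log2 fold change 0.45, SE 0.37, adjusted p = 1 at 10 weeks and 0.04, SE 0.37, adjusted p = 1 at 18 weeks), and counts of the whole gene cannot check the labels, so genotypes are those of the labels throughout. GFP transcripts in VSMCs went against the tracer label in 4 of 16 libraries: both 10-week libraries labelled Smad3SmKO held them without the label (18.7 and 21.4 CPM), and Smad3+/+ replicates 4 and 5 of 18 weeks held none despite it. In the 30 min libraries alone, which leave out every tracer library, 0 members were called at 18 weeks, as in all libraries together. With 0 called in both, the count cannot show whether the doubtful labels matter. At 10 weeks no comparison remains without the libraries in doubt.

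The proximal promoters of 6 members are shown because MHC genes of both classes are known for shared promoter boxes. Sequences are RefSeq's on GRCm38.p6, the 150 bases before the annotated start, read 5′ to 3′ on the strand of the gene. Capitals mark an X1-like box (CTAGNAAC), the CCAAT core (ATTGG) and an interferon-response-like motif (GAA or GAAA, then any 2 bases, then GAAA), each on either strand. The order is B2m (chr2:122147537-122147686, + strand), H2-K1 (chr17:34000348-34000497, - strand), H2-T23 (chr17:36032702-36032851, - strand), H2-DMb1 (chr17:34153041-34153190, + strand), H2-Aa (chr17:34287824-34287973, - strand) and H2-Eb1 (chr17:34305717-34305866, + strand).
B2m: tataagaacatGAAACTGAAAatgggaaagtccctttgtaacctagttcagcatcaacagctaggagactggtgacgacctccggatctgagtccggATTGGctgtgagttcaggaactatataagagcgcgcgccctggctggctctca
H2-K1: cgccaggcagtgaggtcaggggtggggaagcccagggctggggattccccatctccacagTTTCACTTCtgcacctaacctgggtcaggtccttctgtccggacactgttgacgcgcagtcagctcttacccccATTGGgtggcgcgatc
H2-T23: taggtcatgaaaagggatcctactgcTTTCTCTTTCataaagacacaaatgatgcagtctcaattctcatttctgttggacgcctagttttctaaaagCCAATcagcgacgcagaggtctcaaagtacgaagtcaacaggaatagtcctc
H2-DMb1: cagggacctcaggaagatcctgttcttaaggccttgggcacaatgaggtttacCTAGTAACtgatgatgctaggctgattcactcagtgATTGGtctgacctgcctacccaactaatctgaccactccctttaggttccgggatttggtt
H2-Aa: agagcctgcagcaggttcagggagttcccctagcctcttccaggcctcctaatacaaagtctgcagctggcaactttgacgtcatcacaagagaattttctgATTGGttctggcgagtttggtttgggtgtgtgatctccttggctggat
H2-Eb1: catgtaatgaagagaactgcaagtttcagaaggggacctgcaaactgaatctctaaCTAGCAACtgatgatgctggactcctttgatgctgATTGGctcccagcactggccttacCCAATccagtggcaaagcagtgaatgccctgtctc

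Promoters were matched for 34 of the 40 members, each as 300 bases from 250 before to 50 after the start. The CCAAT core was found in 31 of the 34 members and in 37.4% of all 32851 promoter windows of that length, and its longer form TGATTGG in 23 members and in 7.82% of windows. CTAGNAAC was found in 5 members, H2-DMb1 and H2-Eb1 among them, and in 3.62% of windows. GAAA, any 2 bases and GAAA were found in B2m, H2-T22 and H2-T23 and in 3.44% of windows, and the form with GAA first in 8 members and in 7.52% of windows. TGATTGG contains ATTGG. These are matches of letters on either strand and not measured binding, and several members are near-copies of each other.

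Class I was the part of the system that every cell type expressed. H2-D1 and H2-K1, the classical heavy chains, and B2m were the most abundant class I members in each type. Levels are given as CPM, a gene's UMIs per 1000000 UMIs of the summed cells, 1 value per library, with the lowest, median and highest over the 16 libraries (15 for leukocytes). H2-D1 ran from 215 to 524 CPM with a median of 301 in VSMCs, from 554 to 1052 with a median of 738 in fibroblasts, from 879 to 1496 with a median of 1150.2 in endothelium, and from 1349 to 2764 with a median of 2247 in leukocytes. The 24 heavy chains summed to a median of 493 CPM in VSMCs (389 to 912), 1359 in fibroblasts (1000.5 to 1996), 2067 in endothelium (1551 to 2844) and 3757 in leukocytes (2636 to 4950). VSMCs did not overlap with fibroblasts, endothelium or leukocytes in this sum, while each of the other neighbours in the order overlapped. In the endothelial cells that passed no other gate the sum rose to a median of 3668 CPM (2557 to 6231, 15 libraries), close to the leukocyte median and overlapping its range.

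**Figure D1:**
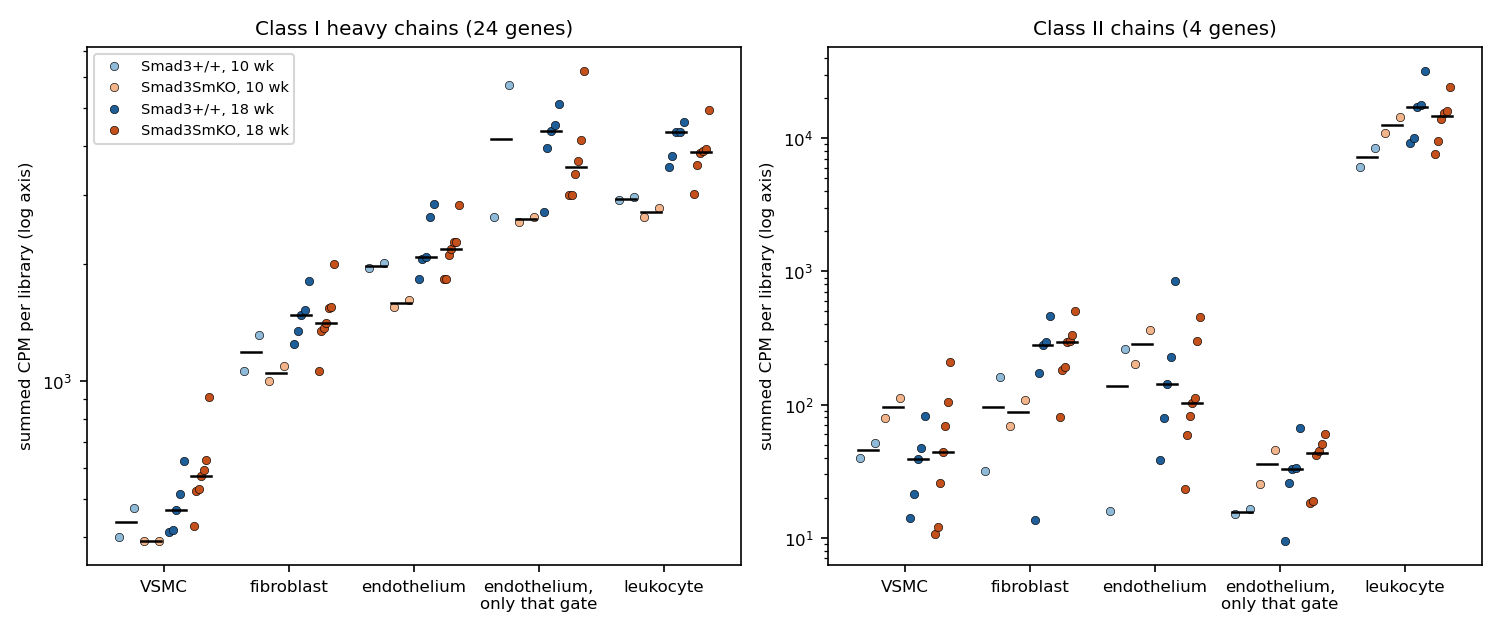
Summed level of the class I heavy chains (24 genes) and of the class II chains (4 genes) in each library and cell type, in CPM on a log axis, where each point is 1 library (1 mouse). Class I separates VSMCs (389 to 912) from all other types, whereas class II spans 13.6 to 502 CPM within fibroblasts alone and reaches 6062 to 32267 in leukocytes.

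The comparison of cell types within libraries put numbers on this order. In edgeR's quasi-likelihood test with the library as a block, VSMCs were below fibroblasts for 18 of the 25 members tested and above them only for H2-Ke6, beside 37.7% of all 12149 genes lower and 33% higher. The 18 were 9 of 10 class I heavy chains, B2m, all 3 loading genes, 3 class II chains, Cd74 and H2-DMa, and 15 of the 18 also passed the count filter in VSMCs alone (not H2-Q6, H2-Q10 and H2-T24). H2-T23, a non-classical heavy chain that displays leader peptides, fell furthest (log2 fold change -2.90, SE 0.12, adjusted p = 3.20e-26), from a median of 120 CPM in fibroblasts to 12.2 in VSMCs. H2-Q4 (-2.73, SE 0.14) and H2-M3 (-2.46, SE 0.14), a heavy chain that binds formylated peptides, followed, while H2-D1 and H2-K1 were each lower by 1.24 on that scale (log2 fold change -1.24, SE 0.08). The median over the 25 was -1.27, against -0.04 over all genes.

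Endothelium exceeded VSMCs for 19 of the 25 members and was lower only for H2-Ke6, beside 34.1% of all genes higher and 31.1% lower, and all 10 class I heavy chains tested were among the 19, of which H2-Q6, H2-Q10 and H2-T24 again did not pass the count filter in VSMCs. Against fibroblasts it was higher for 7 members and lower for none, beside 17.2% and 19.7% of all genes. The 7 were Tap1 and 6 heavy chains, H2-Q6, H2-Q7, H2-T24, H2-Q4, H2-D1 and H2-K1. H2-Q6 had the largest difference (log2 fold change 4.40, SE 0.27, adjusted p = 7.03e-19), with a median of 20.2 CPM in endothelium (4.54 to 64.4) and 0.744 in fibroblasts (0.0548 to 4.84). H2-Q7, a Qa-2 heavy chain anchored by lipid, followed at 2.51 (SE 0.22), from 8.07 to 43.5 CPM. H2-Q6 and H2-Q7 are near-identical neighbours, as are several other H2-Q and H2-T genes, so how reads were split between them is uncertain.

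Restricting each type to cells of 1 gate changed the endothelial result most. Among 24 members tested, 13 were then higher and 6 lower in endothelium than in fibroblasts, beside 28.5% and 33.5% of all 11106 genes. All 10 heavy chains were higher (median log2 fold change 1.41), with H2-Q6 at 7.10 (SE 0.30), H2-Q7 at 4.16 (SE 0.29), H2-K1 at 1.35 (SE 0.11) and H2-D1 at 1.26 (SE 0.08), and B2m was higher by 0.58 (SE 0.10). The 6 lower members were all of class II: H2-Aa (-2.22, SE 0.38), H2-Ab1 (-2.19, SE 0.38), H2-Eb1 (-2.37, SE 0.38), Cd74 (-2.02, SE 0.36), H2-DMa (-1.37, SE 0.40) and H2-DMb1 (-1.08, SE 0.31). Against VSMCs 14 members were higher and 3 lower, beside 31.7% and 34.5% of all genes. The 3 class II chains and Cd74, higher than in VSMCs in the full endothelial gate, were at -0.11 to -1.01 in these cells. There Cd74 was lower in endothelium (adjusted p = 0.0138, edgeR) and the 3 chains did not pass.

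Class II levels were highest in leukocytes. Cd74, the invariant chain, had a median of 19275 CPM in leukocytes (9439 to 36752), against 190 in fibroblasts, 173 in endothelium and 100 in VSMCs. The 4 class II chains summed to a median of 13929.9 CPM in leukocytes (6062 to 32267), 186.6 in fibroblasts, 127.9 in endothelium and 45.6 in VSMCs. Leukocytes exceeded fibroblasts for 23 of 25 members and were lower for none, beside 35.2% and 41.6% of all genes, and only Tapbp and H2-T22 did not pass. Of the 23, H2-Oa and H2-Ob did not pass the count filter in fibroblasts alone and entered the test through leukocytes. The 3 class II chains tested were higher by 6.13 to 6.55 on the log2 scale and Ciita by 5.66 (SE 0.23). H2-Oa and H2-Ob, the pair that restrains H2-DM, had medians of 10.8 and 16.1 CPM in leukocytes and 17 and 25 UMIs in all fibroblasts, and the second H2-DM beta chain, H2-DMb2, 28.7 CPM and 95 UMIs, so that no fold is given for them. H2-Eb2 was too scarce to be tested, with 48 UMIs in leukocytes and 31 in fibroblasts.

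**Figure D2:**
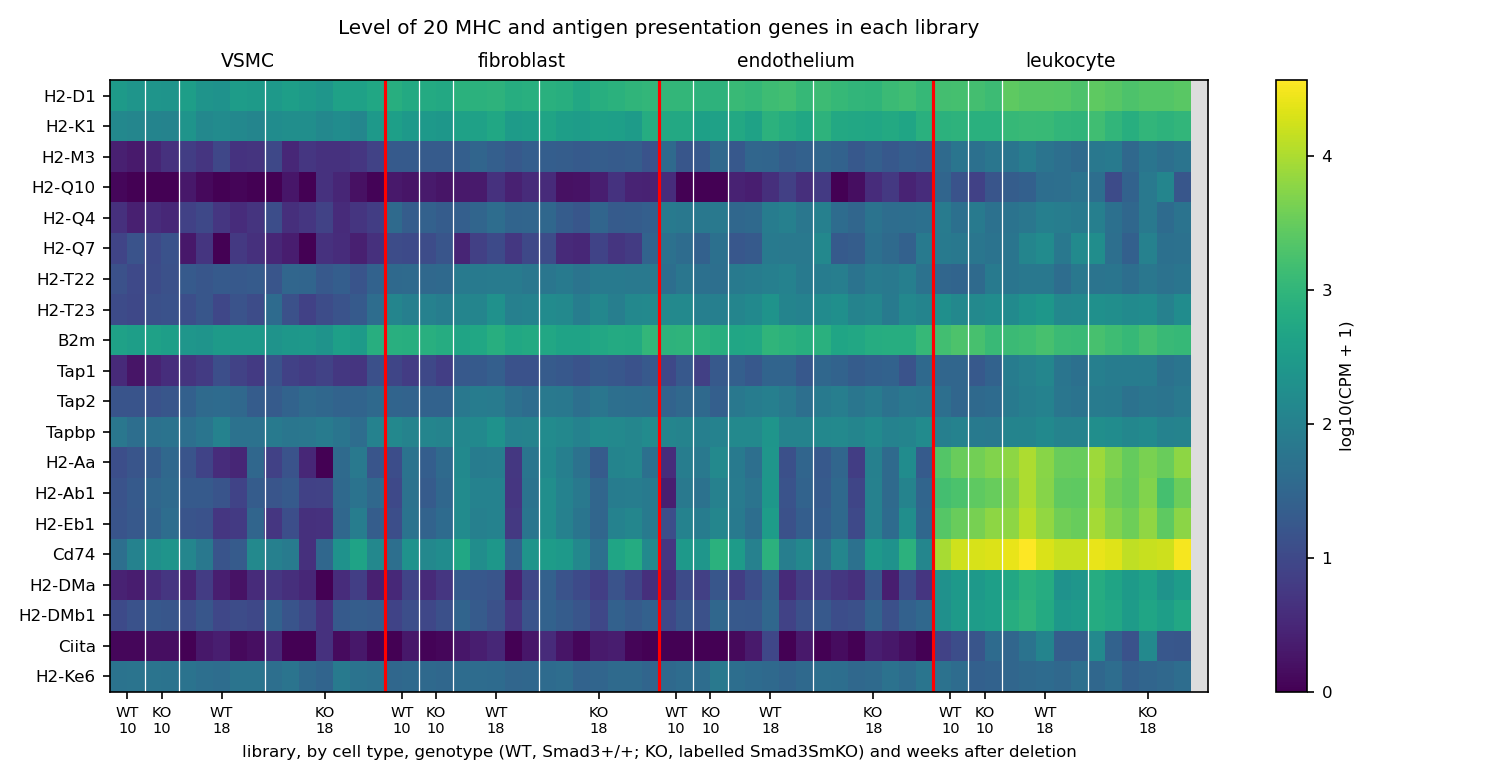
Level of 20 members (the 19 with at least 1000 UMIs in some cell type, and Ciita) in every library, grouped by cell type, with colour as log10(CPM + 1). Class II members light up in the leukocyte columns, H2-D1, H2-K1 and B2m in every column, and fibroblast columns differ among themselves in class II.

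The members that remain were scarce. No UMI of H2-M1, H2-M11 or any of the 6 H2-M10 genes was counted in the 4 gated types. H2-M9 gave 8 UMIs, all in endothelium, H2-M2 gave 597 in leukocytes and 15 in fibroblasts, and H2-Q1, H2-Q2, H2-T3 and H2-M5 gave at most 22 in any type. H2-Ke6 had another order than the MHC chains: its median was highest in VSMCs (53.8 CPM) and lower in endothelium (40.1), fibroblasts (35.4) and leukocytes (34.5).

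Within the leukocyte gate, class II was divided by the kind of cell. The marker sets were C1q, Cd79, S100a8 and S100a9, and Cd3, and the 50 leukocytes that met more than 1 set were kept apart from the pooled counts. The 1830 leukocytes with at least 5 UMIs of C1qa, C1qb and C1qc, complement genes of resident macrophages, and no other set had 26001 CPM of Cd74 and 16144 CPM of class II chains in their pooled counts. The 869 with at least 10 UMIs of S100a8 and S100a9, neutrophil genes, had 431 CPM of Cd74 and 164 CPM of class II chains, and 2889 CPM of class I heavy chains. Of the leukocytes that met this cut, those with a further set included, 493 came from replicate 5 labelled Smad3SmKO of 18 weeks. Over the 8 libraries with at least 20 of the 869 cells the medians were 119 CPM of Cd74 (26.9 to 694), 39.5 CPM of class II chains (6.73 to 260.04) and 3361 CPM of heavy chains (1985 to 3925). In the 90 with at least 2 UMIs of Cd3d, Cd3e and Cd3g, which mark T cells, Cd74 was at 64.2 CPM and H2-Q7 at 368 CPM, beside 66.8 CPM in the C1q-positive cells, in pooled counts of which only 1 library gave 20 or more of these cells. The C1q-positive share of the leukocyte gate, cells with a further set included, ran from 23.4% to 88.0% between the 15 libraries, and its part in the leukocyte sums of class II was not tested.

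Class II transcripts in fibroblasts were concentrated in few cells. Only the 30413 cells that passed the fibroblast gate alone and held no UMI of 8 leukocyte genes (Ptprc, Tyrobp, Fcer1g, C1qa, C1qb, C1qc, Cd79a and Cd79b) were examined. Of these, 1176 (3.87%, exact 95% binomial interval 3.65 to 4.09%) had at least 10 UMIs of the class II chains H2-Aa, H2-Ab1 and H2-Eb1 summed, a threshold chosen after the values were seen, and they held 83.3% of all class II chain UMIs of the 30413 cells. Another 4066 cells had 1 to 9 such UMIs and 25171 had none. The interval covers counting error only.

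Cells chosen for class II chains also had higher levels of Cd74, Ciita, H2-DMa and H2-DMb1, given here as a description. The levels were pooled over all libraries, without matching the sets by library, digestion time or depth. Median depth was 11341 UMIs per cell in the 1176 cells and 7500 in the cells with no class II chain UMI. Cd74 stood at 2725 CPM in the 1176 cells and 14.1 CPM in the cells with no class II chain UMI. Ciita, the regulator, stood at 9.45 CPM against 0.0642, H2-DMa at 123 against 1.55, and H2-DMb1 at 156 against 4.64. H2-Oa, by contrast, had 2 UMIs in all 1176 cells and H2-Ob had none, whereas both were counted in leukocytes. Class I differed less: H2-D1 was at 781 CPM against 740, H2-K1 at 435 against 353, B2m at 514 against 570 and H2-T23 at 238 against 109. Of leukocyte genes not used to select the cells, Coro1a stood at 1.21 CPM against 0.908 and Laptm5 at 0.924 against 0.531. Cd52 was at 1.21 against 0.792, the class II protease Ctss at 0.853 against 0.762 and Lyz2 at 5.26 against 7.0. Cd80 (0.355 against 3.01) and Cd40 (0.284 against 3.74) were lower in the 1176 cells, and Cd86 (0.142 against 0.0471) was higher. These rested on 5, 4 and 2 UMIs in the 1176 cells. Both sets were chosen for holding no UMI of other leukocyte genes, so low levels were partly fixed by the selection.

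**Figure D3:**
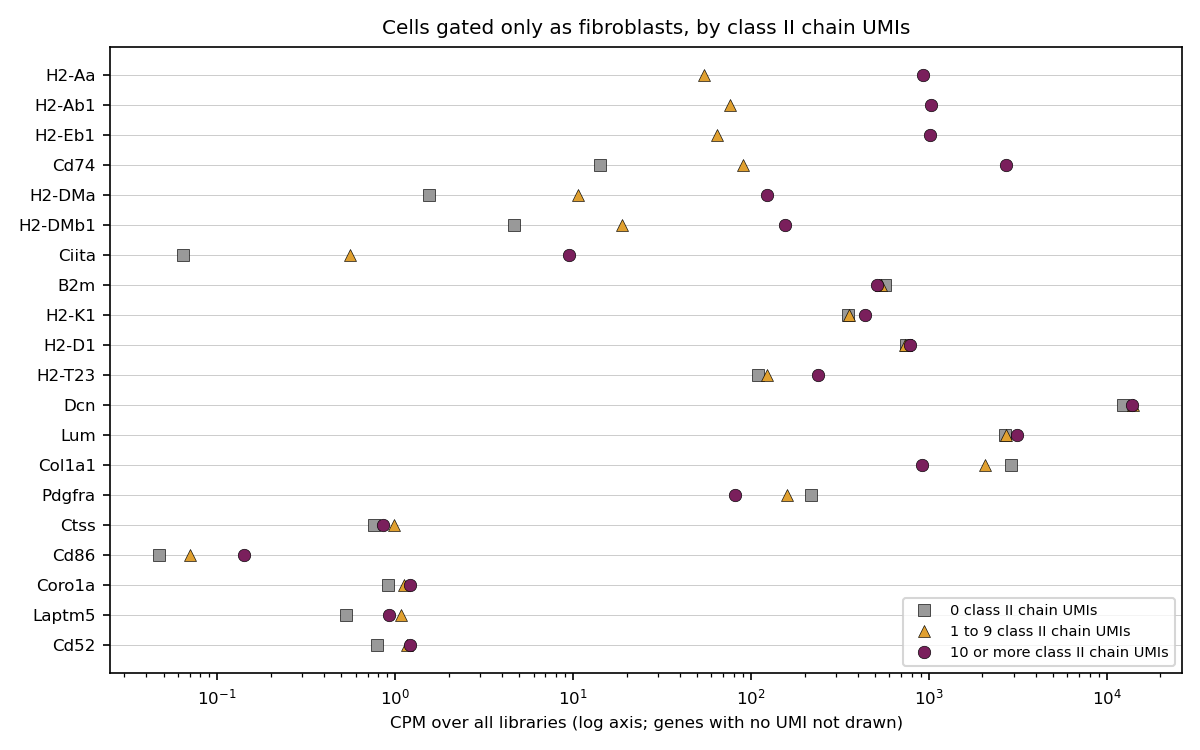
Pooled level (CPM, log axis) of class II, class I, fibroblast and leukocyte genes in cells that passed the fibroblast gate alone with no leukocyte UMI, split by their class II chain UMIs into 0, 1 to 9, and 10 or more. Cd74 rises from 14.1 to 2725 and Ciita from 0.0642 to 9.45, while B2m is at 570 and 514, H2-D1 at 740 and 781, and the leukocyte genes Coro1a, Laptm5, Cd52 and Ctss are near 1.

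Fibroblast transcripts in the same cells differed in their pooled levels from cells without class II chain UMIs, again with sets not matched by library, digestion time or depth. Dcn, a matrix proteoglycan, stood at 13843 CPM against 12399 in cells without class II chain UMIs, but the gate required it in both sets. Of fibroblast genes that set no gate, Lum stood at 3108 against 2684, whereas Col1a1 stood at 913 against 2897 and Pdgfra at 81.2 against 218. Ranked by the median fold over the 14 libraries with at least 10 such cells, the leading genes other than members were Nrgn, Clca3a2, Coch and Wif1. Wif1, a secreted inhibitor of Wnt ligands, had a median of 1567 CPM against 94.8 and was higher in 14 of 14 libraries. Wnt16 (175 against 8.06 CPM) and Id4 (486 against 52.6 CPM) were likewise higher in 14 of 14, and the Wnt agonist Rspo3 (250 against 28.2 CPM) in 13 of 14. The cells were chosen by their counts, so these ratios carry no test, and no cell type name is given to them.

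The share of such cells varied widely between libraries. At 10 weeks it was 0.115% and 2.29% in Smad3+/+ against 0.682% and 1.05% in the other genotype. At 18 weeks the Smad3+/+ libraries had 10.09%, 6.89%, 6.96%, 0.361% and 3.25%, and the 7 libraries labelled Smad3SmKO ran from 0.978% to 10.33% with a median of 5.09%. The genotypes overlapped at both times. By digestion the 7 libraries of 30 min lay between 2.52% and 10.09% (median 6.96%) and the 9 of 60 min between 0.115% and 10.33% (median 1.05%), and all 10-week libraries are of 60 min, so time and digestion cannot be told apart there. Depth differed as well: the kept cells had medians of 4528 to 6034 UMIs at 10 weeks and 9469 to 15602 in the 30 min libraries. With each cell thinned to 2000 UMIs and at least 2 class II chain UMIs required, a cut chosen after the values were seen, the share was 0.115% to 4.62% at 10 weeks and 0.258% to 11.7% at 18 weeks, 3.49% to 11.7% (median 7.24%) at 30 min and 0.115% to 8.70% (median 2.51%) at 60 min. The genotypes overlapped at both times after thinning too. With the same restrictions 64 of 7987 VSMCs and 4 of 1123 endothelial cells had 10 or more class II chain UMIs. Within libraries the fibroblast share was above the VSMC share in 15 of 16 and above the endothelial share in 15 of 15. The endothelial share had a median of 0% over few cells per library, and endothelium was not thinned. After thinning the fibroblast share was above that of VSMCs in only 12 of 16, and 3 of the other 4 were 10-week libraries.

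**Figure D4:**
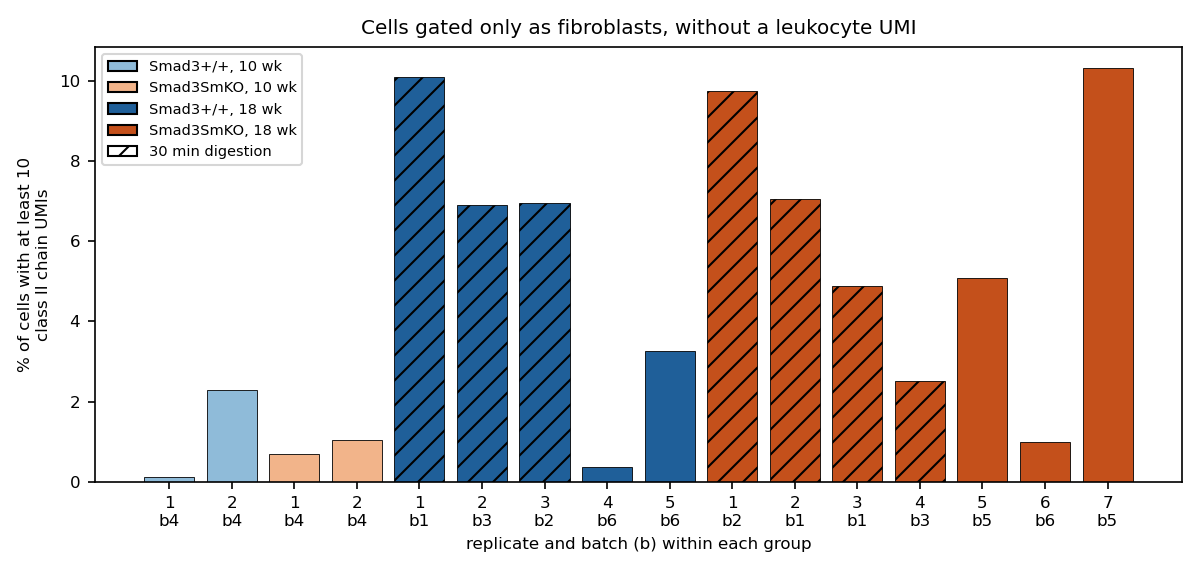
Percent of cells in the fibroblast gate alone, with no leukocyte UMI, that had at least 10 UMIs of class II chains, for each library by genotype and weeks, with digestion time marked. The groups overlap, from 0.115% to 2.29% at 10 weeks and from 0.361% to 10.33% at 18 weeks.

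The share of cells with any UMI was computed before and after thinning cells to 1 depth. Before thinning, 17.3% of VSMCs, 18.2% of fibroblasts, 16.8% of endothelium and 74.8% of leukocytes had a Cd74 UMI. With every cell thinned to 2000 UMIs the shares were 7.24%, 8.65%, 7.05% and 69.3%. Ciita, thinned, was seen in 0.0782% of VSMCs, 0.166% of fibroblasts, 0.121% of endothelium and 6.08% of leukocytes. The ratio of Cd74 to C1q UMIs had a median over libraries of 1.92 in leukocytes (0.980 to 3.76), 4.59 in fibroblasts (0.927 to 173.5), 6.29 in VSMCs (2.26 to 604) and 4.08 in endothelium (0.184 to 91), and these ranges overlapped.

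No member passed between genotypes at an adjusted p under 0.05 in any of 12 comparisons, which cover 4 cell types, each at both times and in the contrast of times. The tests were edgeR's quasi-likelihood tests with batch as a term and Benjamini-Hochberg adjustment over all genes, and their p-values measure the spread between mice. Replicates 5 and 7 labelled Smad3SmKO of 18 weeks make up batch 5, which holds no Smad3+/+ mouse. With the batch term they give the 18-week fold changes no contrast of genotypes, although they enter the ranges and medians given beside them. The background was almost as empty: in VSMCs 0% of 11852 genes passed at 10 weeks, 0.0337% (4 genes) at 18 weeks and 0.00844% (1 gene) in the contrast of times, and in the other 3 types 0% passed everywhere. Members tested numbered 18 in VSMCs, 23 in fibroblasts, 21 in endothelium and 26 in leukocytes. Counted at an unadjusted p under 0.05, members in VSMCs numbered 0 at 10 weeks, 1 at 18 weeks and 0 in the contrast of both, beside 1.8%, 4.73% and 2.44% of all genes. In fibroblasts they numbered 0, 0 and 0, beside 0.752%, 2.39% and 0.868%. In endothelium they numbered 1, 0 and 0, beside 3.62%, 2.94% and 3.42%. In leukocytes they numbered 4, 2 and 4, beside 3.09%, 1.58% and 3.36%.

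**Figure D5:**
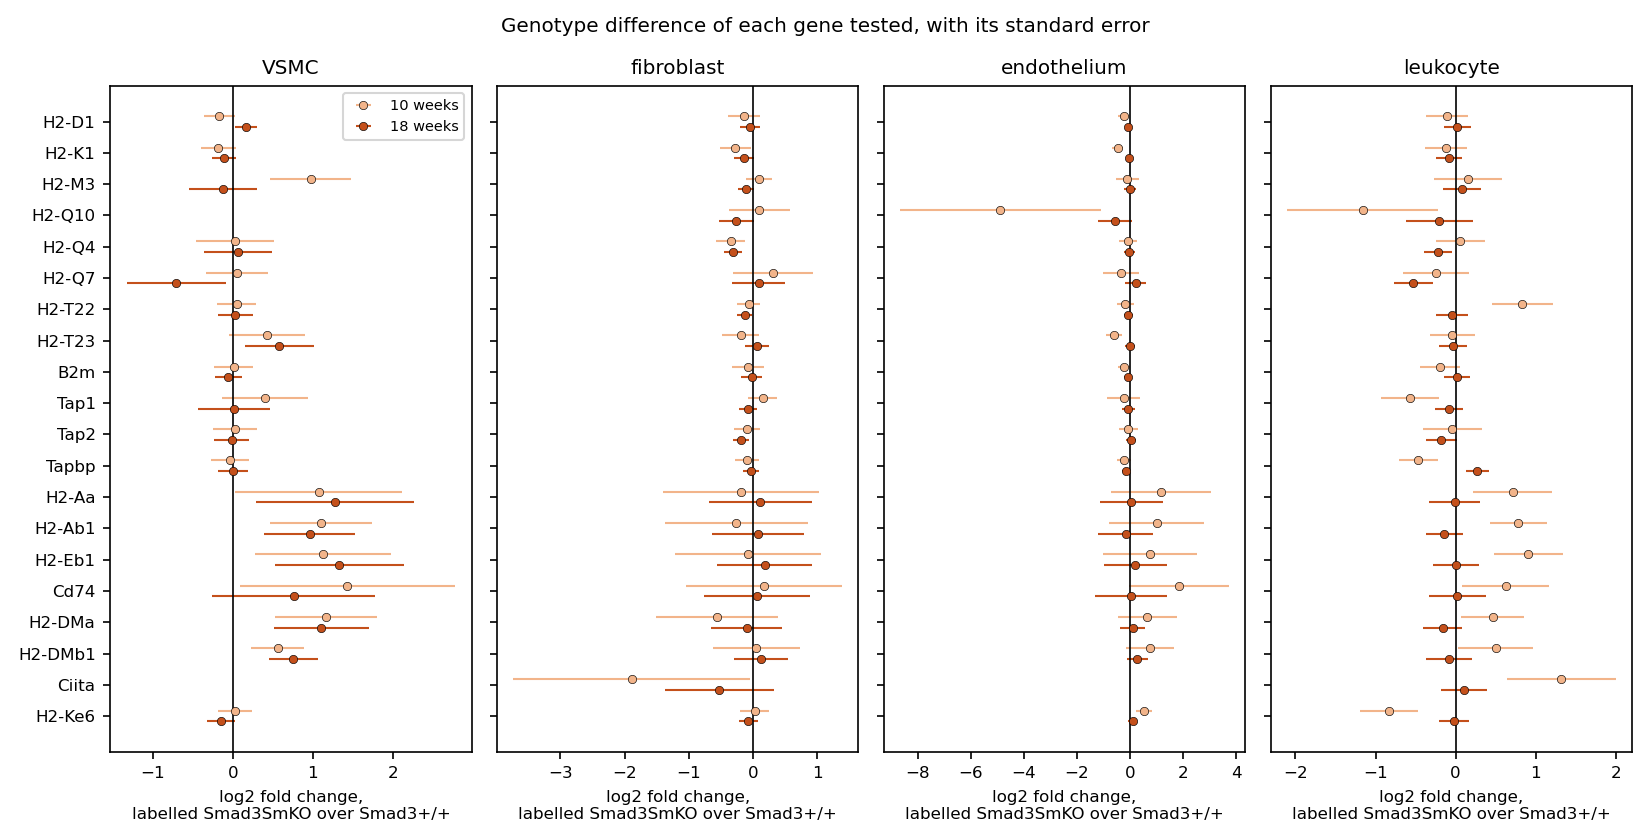
Log2 fold change of libraries labelled Smad3SmKO over Smad3+/+ for the tested members in each cell type at 10 and 18 weeks, with standard errors, from edgeR's quasi-likelihood fit. No member passed an adjusted p under 0.05 in any of these comparisons, and class II members have wide error bars in VSMCs (SE 1.35 for Cd74 at 10 weeks) and endothelium (SE 1.89).

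In VSMCs the highest fitted values at both times were those of class II members, none of which passed. Cd74 was at 46 and 106 CPM in the 10-week Smad3+/+ libraries and at 185 and 229 in the libraries labelled Smad3SmKO. The spread in the fit was wide (log2 fold change 1.43, SE 1.35, adjusted p = 1, edgeR). H2-Eb1 was at 14.3 and 17.8 CPM against 27.9 and 41.2 (1.13, SE 0.85), and H2-DMa, at 7 to 34 UMIs per library, at 1.71 and 1.37 against 2.8 and 4.18 (1.17, SE 0.64). All 6 class II members tested were positive, from 0.56 to 1.43, while the 7 heavy chains had a median of 0.05 and all genes one of -0.01. The share of all genes that were positive is not given. The sums of 8 leukocyte and 8 macrophage markers in these VSMCs overlapped between the genotypes: 15 to 15.6 and 10.9 to 35 CPM in Smad3+/+, 13 to 16.2 and 18.5 to 26.1 CPM in those labelled Smad3SmKO. In VSMCs without any leukocyte UMI the Cd74 value was 1.73. The part of leukocyte transcripts in these class II values was not tested. With every gene of at least 1 UMI in the fit, Cd74 passed at 10 weeks (log2 fold change 1.44, adjusted p = 2.26e-06, edgeR), as did H2-Aa, H2-Ab1 and H2-Eb1, and these 4 also at 18 weeks. In those fits 0.267% and 0.702% of 19090 genes passed.

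At 18 weeks H2-Eb1 in VSMCs was at 14.1, 13.3, 4.24, 4.88 and 30.3 CPM in the Smad3+/+ libraries and ran from 3.26 to 84.8 with a median of 11.2 in the 7 libraries labelled Smad3SmKO. The groups overlapped (log2 fold change 1.33, SE 0.81, adjusted p = 1, edgeR). H2-Aa (1.28, SE 0.99) and H2-DMa (1.11, SE 0.60) followed the same course. These 3 values rested on replicate 6 labelled Smad3SmKO, the highest in class II; without it H2-Eb1 was at -0.88, H2-Aa at -0.57 and H2-DMa at -0.02. That library also had the highest macrophage marker sum of all VSMC sums, 188 CPM, against 5.05 to 85.3 in Smad3+/+, and its part in the result was not tested. H2-DMb1 was the member with an unadjusted p under 0.05 (0.75, SE 0.30, unadjusted p = 0.0236, adjusted p = 1, edgeR). Its levels overlapped, at 10.37, 15.5, 8.48, 10.7 and 8.91 CPM in Smad3+/+ and 3.56 to 26 with a median of 18.4 in those labelled Smad3SmKO. Of the 4 batches that hold both genotypes, H2-DMb1 was higher in 3 (log2 ratios from -2.126 to 1.615). H2-Eb1 was higher in 2 of the 4 (-1.908 to 2.27). For the difference between times the largest values in VSMCs were those of H2-M3 (-1.09, SE 0.66), H2-Q7 (-0.76, SE 0.73) and Cd74 (-0.67, SE 1.66). H2-Q7 turned to 0.25 without replicate 6 labelled Smad3SmKO, and Cd74 to 1.13 in the 60 min libraries and to 0.40 without Smad3+/+ replicate 1 of 18 weeks.

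In fibroblasts, outside the reach of the smooth muscle Cre, the log2 fold changes of the class II chains between genotypes were small, from -0.26 to -0.08 at 10 weeks and from 0.07 to 0.18 at 18 weeks. Cd74 itself ranged from 26.4 to 514 CPM in the 18-week Smad3+/+ libraries and from 44.8 to 647 in the libraries labelled Smad3SmKO. At 18 weeks the largest values were those of Ciita (-0.52, SE 0.85), H2-Q4 (-0.31, SE 0.14) and H2-Q10 (-0.26, SE 0.27), all with adjusted p = 1 in edgeR's test to 3 digits. H2-Q4 was at 22.9, 30.4, 41.6, 28.6 and 29.9 CPM in Smad3+/+ and at 15.6 to 33.2 with a median of 20.2 in those labelled Smad3SmKO. At 10 weeks H2-DMb2 rested on 2 UMIs against 0 and is given no fold. Ciita (-1.89, SE 1.84) rested on Smad3+/+ replicate 2, which held 16 of the 19 UMIs of that time, and the value was 4.92 without it. H2-T24 was at 2.85 and 2.13 CPM against 1.52 and 0.936 (-0.999, SE 0.485).

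In endothelium H2-K1 was at 557 and 562 CPM in the 10-week Smad3+/+ libraries and at 400 and 414 in the libraries labelled Smad3SmKO (log2 fold change -0.47, SE 0.21, unadjusted p = 0.0418, adjusted p = 1, edgeR). It was the 1 member of 21 tested with an unadjusted p under 0.05, beside 3.62% of all genes. H2-Q10 rested on 2 UMIs against 0 at that time and is given no fold. Cd74 was at 4.3 and 278 CPM against 254 and 809 (1.84, SE 1.89), at -0.19 in cells of 1 gate, and from 0.86 (without replicate 2 labelled Smad3SmKO) to 6.95 (without Smad3+/+ replicate 2) with 1 library left out. The sum of leukocyte markers in the same endothelium was 8.59 and 70.3 CPM in Smad3+/+ against 97.5 and 99.97 CPM, and that of neutrophil markers 48.7 and 5.74 against 1733 and 148 CPM, so neither overlapped. The sum of macrophage markers was 17.2 and 221 CPM in Smad3+/+ against 82.1 and 173 CPM and did overlap. The part of these sums in the Cd74 value was not tested. Cd74 passed there when every gene of at least 1 UMI was fitted (0.194% of 19601 genes), as it did in the contrast of times (0.163%). H2-Q6 was at 45.8 and 18.7 CPM against 16.7 and 4.54 (-1.42, SE 0.99). At 18 weeks the largest values were those of H2-Q10 (-0.57, SE 0.63), H2-DMb1 (0.28, SE 0.40) and H2-Q7 (0.21, SE 0.38). H2-DMb1 turned to -0.25 in the 30 min libraries and to -0.32 in cells without a leukocyte UMI, and H2-Q7 to -1.39 in the 60 min libraries. The 10 heavy chains tested had a median of -0.40 at 10 weeks, with 0 of 10 positive (-0.34 without H2-Q10), and of -0.03 at 18 weeks with 3 of 10 positive. All genes had medians of -0.02 and -0.0004, and the share of all genes that were positive is not given.

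In leukocytes H2-Q6 was the member with the smallest unadjusted p at 18 weeks (log2 fold change -0.75, SE 0.20, unadjusted p = 0.00198, adjusted p = 1 to 3 digits, edgeR). It was at 21.3, 87.5, 75.9, 47.1 and 81.6 CPM in Smad3+/+ and ran from 12.2 to 65.8 in the 6 libraries labelled Smad3SmKO fitted, so the groups overlapped. Its log2 ratio was below 0 in all 4 batches that hold both genotypes, from -1.08 to -0.21, and it was at -0.74 in the C1q-positive leukocytes alone. Both values come from the same libraries as the fit, for a member picked by its p-value, so they are no separate support. H2-Q7, its near-identical neighbour, was at -0.53 (SE 0.24). H2-Oa (-1.10, SE 0.65) and H2-DMb2 (-0.65, SE 0.45) were the other large values of 18 weeks. With every gene of at least 1 UMI in the fit H2-Oa passed at 18 weeks (0.416% of 18999 genes passed) and H2-DMb2 in the contrast of times (0.468%).

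At 10 weeks H2-T24, a scarce heavy chain, had 5 and 6 UMIs in the Smad3+/+ leukocytes and none in either Smad3SmKO library. With 3 counts over the group taken as the floor, the level was 2.88-fold lower. That value leaves out the counting error of the 11 Smad3+/+ UMIs and the spread between mice. H2-T24 did not pass in edgeR's test. H2-DMb2 was at 1.77 and 12.6 CPM against 14.8 and 53.5 (1.91, SE 1.05), but at -0.67 in C1q-positive leukocytes, and Ciita at 7.06 and 11.2 against 14.8 and 38.2 (1.32, SE 0.68). All 9 class II chains and loading genes tested were positive at 10 weeks, from 0.46 to 1.91, beside a median of -0.02 over all genes, and none passed. The share of all genes that were positive is not given. Of the 4 members with an unadjusted p under 0.05 then, 2 were heavy chains and 1 was H2-Ke6 (-0.83). The other was H2-Ab1, at 1566 and 1893 CPM against 2703 and 3190.1 (0.78, SE 0.35, unadjusted p = 0.0417, adjusted p = 1, edgeR). At 18 weeks 2 of those 9 class II members were positive. H2-DMb2 (-2.56, SE 1.14) and H2-Oa (-2.003, SE 1.37) then had the largest differences between times besides H2-T24. The neutrophil marker sum of the 10-week leukocytes was 36515 and 8431 CPM in Smad3+/+ and 2547 and 19481 CPM in those labelled Smad3SmKO, and its part in the class II values was not tested.

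Genes that act beside the members were counted from fixed lists. Of 11 further class I pathway genes, 11 of the class II pathway and 21 of interferon signalling, none passed at an adjusted p under 0.05 in any genotype comparison in edgeR's test, and at most 2 of a list had an unadjusted p under 0.05. Between cell types they differed widely. All 10 class I pathway genes tested were higher in endothelium than in VSMCs and lower in VSMCs than in fibroblasts, among them the immunoproteasome subunit Psmb8 (log2 fold change -3.00, SE 0.14, VSMC against fibroblast), beside 34.1% and 37.7% of all genes. Of the interferon list 19 of 21 were higher in endothelium than in VSMCs and 1 was lower, beside 34.1% and 31.1% of all genes, with the transcription factor Irf7 at 2.82 (SE 0.18) and the chemokine Cxcl10 at 3.02 (SE 0.36). Leukocytes exceeded fibroblasts for 9 of 11 class II pathway genes, beside 35.2% of all genes, led by the protease Ctss at 8.08 (SE 0.39), and were lower for the protease Ctsl (-1.61, SE 0.13). Pdia3 and Calr, chaperones of class I assembly, were the most abundant of the class I list in fibroblasts (medians of 796 and 604 CPM), Ctsl and Ctsb of the class II list (1727 and 555) and Ifnar2 of the interferon list (166).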

How the data were processed

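The members and gene lists were chosen with earlier results of these data known. Per the labels and the file headers, the authors aligned reads of the droplet libraries (3′ chemistry) to mm10 with the GFP sequence added, using Cell Ranger (the labels name version 6, the headers 4.0.0) and deposited UMI counts per gene and cell, not normalized. Cells were kept with 600 to 6000 genes, 2000 to 50000 UMIs and under 25% mitochondrial UMIs, the limits of the study's methods. Doublets were not called. Counts were summed per library and cell type (Python 3.11.15, pandas 2.3.3), with at least 20 cells, and tested with edgeR 4.0.16 in R 4.3.3 (TMM, filterByExpr, robust quasi-likelihood, Benjamini-Hochberg over all genes), genotype with batch as a term and cell types with library as a block. Scripts were tested on simulated data. Alternatives were DESeq2 1.42.0, other size factors, gates, cell and count filters, single digestion times and each library left out. Named were members with at least 1000 UMIs in a type, Ciita, called members, and the 3 largest fold changes of each genotype comparison; other members were singled out after their values were seen. No replicate numbers pair the mice, since they follow accession order.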

Additional observations from a re-analysis of the deposited data

Results flagged for a closer look

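In 166 groups of 4 to 10 libraries, 19 had a highest library that stood apart from the rest by Dixon's criterion, where chance gives about 1 in 20. In replicate 7 labelled Smad3SmKO of 18 weeks B2m was at 724.1 CPM in VSMCs (the others 216.9 to 370.1) and at 1070 CPM in fibroblasts (444.5 to 604.5). H2-K1 there was at 299.5 CPM in VSMCs and 664.5 CPM in fibroblasts, H2-Q7 at 26.91 CPM in fibroblasts, and the heavy chains summed to 911.6 CPM in VSMCs. That library had 631 kept cells, the fewest of all, and the highest median depth.

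In Smad3+/+ replicate 3 of 18 weeks Tapbp stood apart in 3 cell types, at 104.5 CPM in VSMCs, 235 CPM in endothelium and 145.4 CPM in leukocytes, and H2-T23 at 203.5 CPM in fibroblasts. Its endothelium also had 841.5 CPM of class II chains (the others 38.22 to 228.7), with H2-Ab1 at 262.8, H2-Aa at 252.7, H2-Eb1 at 326 and Ciita at 8.213 CPM. Of these 114 cells, 7 held 96.4% of the class II chain UMIs. In the 35 that passed the endothelial gate alone and held no leukocyte UMI the level was 34.4 CPM. The leukocyte marker sum of this endothelium, 299 CPM, was the highest of any library, and its part in these values was not tested.

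In replicate 6 labelled Smad3SmKO of 18 weeks H2-Eb1 was at 84.78 CPM in VSMCs, and in endothelium Cd74 was at 862.5 CPM and the class II loading genes summed to 899.8 CPM. H2-Q4 was at 97.07 CPM in the endothelium of replicate 1 labelled Smad3SmKO (the others 30.75 to 52.87). Outside the comparisons, the 1642 kept cells that passed no gate held 1061 CPM of Cd74, above the 0.340 CPM that 3 counts would give.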

How the results depend on the processing

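No member was called in a genotype comparison under the alternatives run, with the exception of the one that kept every gene with at least 1 UMI. Without the filter on low counts 4 members were called in VSMCs at 10 weeks (H2-Ab1, H2-Aa, H2-Eb1 and Cd74, adjusted p for Cd74 2.26e-06, edgeR) and the same 4 at 18 weeks, 1 in endothelium at 10 weeks (Cd74) and 1 for its difference between times (Cd74), 1 in leukocytes at 18 weeks (H2-Oa) and 1 for their difference (H2-DMb2). All-gene calls were then 51 and 134 of 19090 in VSMCs, 38 and 32 of 19601 in endothelium and 79 and 89 of 18999 in leukocytes; Cd74 in VSMCs at 10 weeks had a log2 fold change of 1.44 then and 1.43 with the filter, and the cause of the smaller p-values was not tested. Leaving out each library in turn gave 0 to 0 members called in each genotype comparison, 7 to 8 for endothelium against fibroblast, 18 to 21 for endothelium against VSMC, 19 to 20 for VSMC against fibroblast and 23 to 24 for leukocyte against fibroblast. Endothelium against fibroblast, 7 members and all higher, gave 19 with cells of exactly 1 gate, of which 13 were higher and 6 lower. All-gene calls there were 28.5% higher and 33.5% lower, beside 17.2% and 19.7% in the main fit. The comparison gave 11 with DESeq2's Wald test and 12 with cells without a leukocyte UMI. Shares of all genes are not given for these 2 settings or for the fits with 1 library left out.

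Single log2 fold changes that changed sign were these. With cells of exactly 1 gate, endothelium against VSMC gave H2-Ab1 -0.78, H2-Aa -0.11, H2-Eb1 -0.30 and Cd74 -1.01, and in endothelium Cd74 gave -0.19 at 10 weeks and 0.30 for the difference. Libraries of 30 min alone gave H2-Eb1 -0.87 in VSMCs and H2-DMb1 -0.25 in endothelium at 18 weeks, the latter also -0.32 without leukocyte UMIs. Libraries of 60 min alone gave, for the difference, Cd74 1.13 in VSMCs and 1.16 in endothelium and H2-Q6 -0.540 in endothelium, and H2-Q7 -1.39 in endothelium at 18 weeks, which was -0.0286 without the batch term. C1q-positive leukocytes gave H2-DMb2 -0.67 at 10 weeks and 0.33 for the difference. Leaving out 1 library at a time gave these ranges. In VSMCs at 18 weeks H2-Eb1 ran from -0.876 to 1.808, H2-Aa from -0.574 to 2.204 and H2-DMa from -0.01655 to 1.614, each lowest without replicate 6 labelled Smad3SmKO. For the difference in VSMCs H2-Q7 ran from -1.395 to 0.247 (highest without that library) and Cd74 from -1.979 to 0.399 (highest without Smad3+/+ replicate 1 of 18 weeks). In fibroblasts Ciita ran from -2.814 to 4.92 at 10 weeks and from -5.444 to 2.291 for the difference, where 4.92 and -5.444 are without Smad3+/+ replicate 2 of 10 weeks, and from -0.782 to 0.01464 at 18 weeks (highest without Smad3+/+ replicate 5). In endothelium at 18 weeks H2-DMb1 ran from -0.273 (without replicate 6 labelled Smad3SmKO) to 0.6262, and H2-Q7 from -0.132 to 0.7983, below 0 without Smad3+/+ replicates 2 or 3 or replicates 1 or 4 labelled Smad3SmKO. For the difference in endothelium H2-Q10 ran from -0.567 (without Smad3+/+ replicate 1 of 10 weeks) to 5.294. Cd74 and H2-Ab1, higher in endothelium than in VSMCs, no longer passed without Smad3+/+ replicate 3 (log2 differences of 0.68 and 0.65) or replicate 4 labelled Smad3SmKO of 18 weeks (0.78 and 0.76). Leaving out the 4 libraries richest in B cell or neutrophil transcripts, chosen after seeing the data, called 0 members in leukocytes. No paired analysis was possible because replicate numbers follow accession order and pair no mice. At 10 weeks 2 mice per genotype, and VSMC sums from as few as 22 cells at 18 weeks, limit what could be detected.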

Other observations

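The ratios among class II transcripts gave 1 more measurement. H2-Aa was at 15.8 UMIs per 100 Cd74 UMIs in VSMCs, with a range of 10.7 to 24.9 over the 12 libraries with at least 100 Cd74 UMIs, and H2-Ab1 at 18.0 with a range of 12.3 to 37.6.

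The 501 leukocytes with none of the 4 marker sets (C1q, Cd79, S100a8 and S100a9, Cd3) held 24883 CPM of Cd74, near the 26001 CPM of the C1q-positive cells. In the 17 that met the Cd79 set, which marks B cells, and no other set, Cd74 was at 6946 CPM and H2-DMb2 at 104 CPM, against 14.4 CPM of H2-DMb2 in the C1q-positive cells. The 50 leukocytes that met more than 1 set held 28780 CPM of Cd74. These are pooled counts with no test.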
